A study of Mus musculus with 9 samples.

Results

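The EGF family genes described here are 7 ligands that bind the EGF receptor (Egf, Tgfa, Areg, Hbegf, Btc, Ereg and Epgn), the neuregulin ligand Nrg1, and the receptors Egfr and Erbb3, 10 genes chosen by name. Of these, 9 had an array row with a single gene symbol, among 19938 genes with such a row, and each of the 9 had 1 row. Areg, the amphiregulin gene, had no row named in the annotation used and is not analysed here. RNA came from mammary epithelial cells of wild-type C3H female mice aged 8 to 9 weeks, all of them freed from fat with collagenase. Untrypsinized cells had met no further enzyme, the trypsinized group had a trypsin step added, and the mock sorted group had both trypsin and a pass through a FACS cell sorter as a mock sort. There were 3 arrays a group, which the labels call biological replicates without naming the animals, so the p-values cover only the spread between these samples, some of which may be technical.

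Ligands of this family are made as membrane-anchored precursors that surface proteases cut free, and they bind receptor kinases of the ErbB family, which pair up and signal largely through the Ras and ERK cascade. Neuregulins bind ErbB3 and ErbB4, while ErbB3 has little kinase activity of its own and signals through a partner. In the mammary gland EGF receptor signalling is needed for ducts to grow at puberty, and several of the ligand genes are themselves switched on by ERK signalling.

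The preparations carried epithelial RNA in every array. Log2 intensity was 13.01 to 13.17 for Epcam, 13.84 to 13.94 for the luminal keratin gene Krt8 and 12.71 to 12.83 for the basal keratin gene Krt14. Other cell types were also present and their markers differed between groups: the summed intensity of 12 endothelial markers was 39398 to 44652 in untrypsinized, 31238 to 31777 in trypsinized and 15271 to 18199 in mock sorted arrays. That of 12 luminal markers was 90738 to 93106, 96820 to 97987 and 99778 to 100449 in the same order. Replicate 1 of the trypsinized and of the mock sorted group stood apart in lymphocyte markers, where 11 genes summed to 19582 and 17029 against 4687 to 8130 in the other arrays. No marker was at 0 in any array. In such bulk RNA, fewer cells of a type and less RNA per cell cannot be told apart.

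Of the 10 genes 6 had a promoter entry, and Nrg1, Ereg and Erbb3 had none. Epgn and Tgfa were among the 6 genes that rose after trypsin. Btc lies in the same run of genes as Epgn, and Egfr did not pass in any of the 3 comparisons as fitted. Promoters of these 4 genes are shown. They are the 250 bases before the gene's start from RefSeq (GRCm38.p6), written 5′ to 3′ along the gene's strand, at chr5:91027267-91027516 (plus strand) for Epgn, chr5:91402995-91403244 (minus strand) for Btc, chr6:86194972-86195221 (plus strand) for Tgfa and chr11:16751953-16752202 (plus strand) for Egfr. Capitals mark matches, on either strand, to the letters TATAAA of the TATA box or GGGCGG of the GC box.
Epgn: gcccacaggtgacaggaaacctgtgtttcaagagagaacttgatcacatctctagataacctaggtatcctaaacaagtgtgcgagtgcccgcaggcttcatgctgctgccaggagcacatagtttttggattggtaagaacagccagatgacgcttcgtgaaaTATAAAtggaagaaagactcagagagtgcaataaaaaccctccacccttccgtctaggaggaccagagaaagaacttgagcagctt
Btc: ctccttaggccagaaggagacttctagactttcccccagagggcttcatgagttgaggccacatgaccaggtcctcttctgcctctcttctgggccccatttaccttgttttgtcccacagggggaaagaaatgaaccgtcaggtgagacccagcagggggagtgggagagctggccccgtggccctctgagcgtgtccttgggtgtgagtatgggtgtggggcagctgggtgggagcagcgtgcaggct
Tgfa: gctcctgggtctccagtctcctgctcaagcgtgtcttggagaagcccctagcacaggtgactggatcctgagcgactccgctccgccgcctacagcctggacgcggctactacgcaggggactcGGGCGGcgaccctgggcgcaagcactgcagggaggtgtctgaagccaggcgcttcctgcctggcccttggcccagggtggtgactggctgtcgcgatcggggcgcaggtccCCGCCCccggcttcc
Egfr: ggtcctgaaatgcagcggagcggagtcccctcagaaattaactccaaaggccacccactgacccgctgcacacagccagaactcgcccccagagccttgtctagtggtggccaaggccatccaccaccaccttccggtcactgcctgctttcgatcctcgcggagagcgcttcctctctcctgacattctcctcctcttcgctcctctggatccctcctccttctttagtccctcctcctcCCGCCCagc

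Epgn had 1 match to TATAAA, 86 to 81 bases before its start. Tgfa had GGGCGG 126 to 121 bases before the start and its reverse complement 15 to 10 bases before it, while Egfr had the reverse complement 9 to 4 bases before its start. Over 32851 promoter entries of the same length, 12.4% held TATAAA and 32.7% held GGGCGG. None of these 4 windows held the AP-1 letters TGANTCA (6.75% of all entries), the CRE letters TGACGTCA (1.55%) or a CArG box (1.47%), searched on both strands, and no 2 matches overlapped. The Btc window held none of the 5 motifs. Areg, which had no named array row, also has a promoter entry, not shown here. Its window held TGACGTCA 61 to 54 bases before the start, GGGCGG 52 to 47 and TATAAA 31 to 26 bases before it. G and C made up 46.8% of the bases for Epgn, 59.6% for Btc, 69.2% for Tgfa and 60.8% for Egfr, with a median of 52.4% over all entries. In the RefSeq gene order Epgn, Ereg, Areg and Btc follow each other on chromosome 5 with no other protein-coding gene between them.

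Trypsinized against untrypsinized cells shows what went with the trypsin step. Of the 9 genes, 6 rose (Nrg1, Epgn, Ereg, Tgfa, Hbegf and Erbb3), all by less than 1.5-fold, and none fell (0 lower also at an unadjusted limma p under 0.05). A gene passed this test at an adjusted p of 0.05 or below, with limma and Benjamini-Hochberg adjustment over 19938 genes. On that rule 13.9% of all genes were higher and 11.5% lower, so passing was common, and 6 of 9 stood above that share. The members were chosen with earlier results of these data known, so this excess is a description only. The submitters' design text sets a p of 0.05 and a fold of at least 1.5, without saying whether that p was adjusted; here a gene was called if it passed the adjusted test with at least that fold. No member was called, with the adjusted or the unadjusted p, against 0.532% of all genes called higher and 0.933% called lower.

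**Figure D1:**
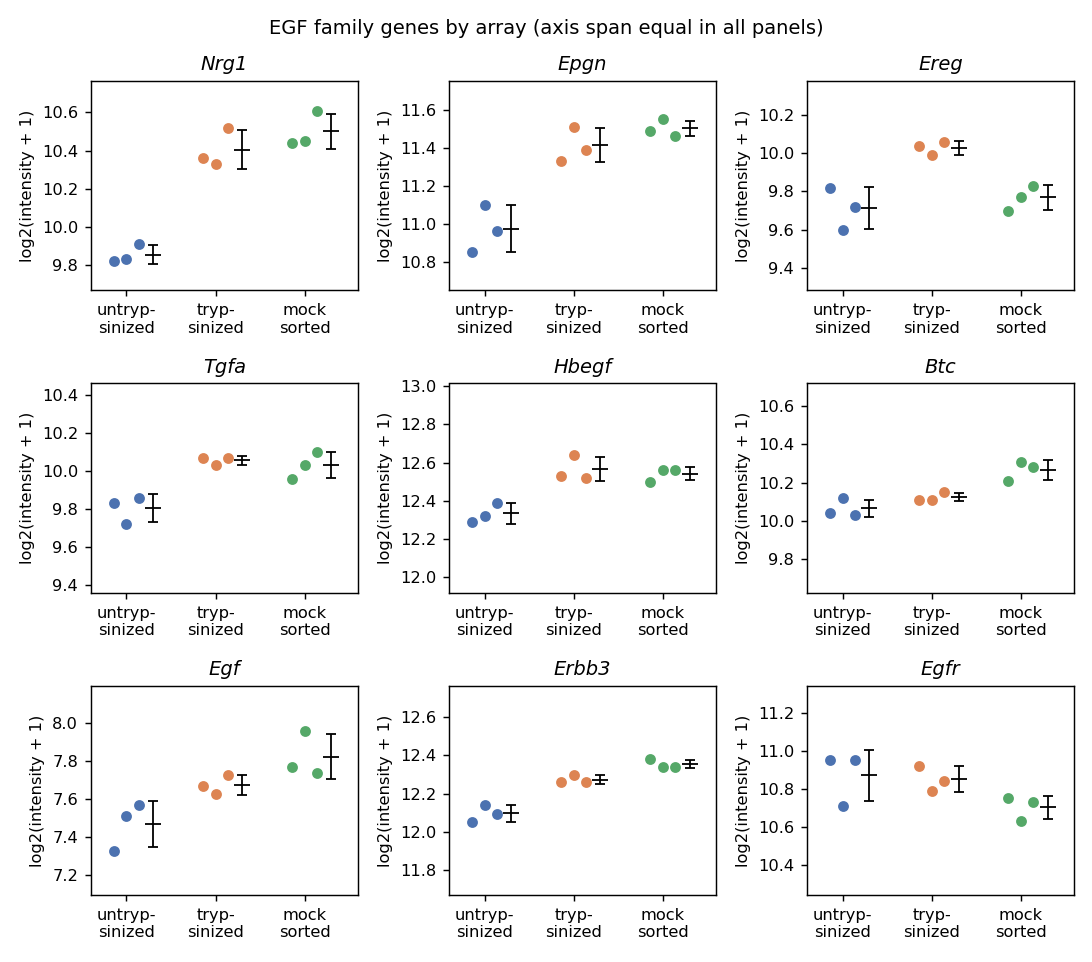
Log2(intensity + 1) of each EGF family gene (vertical axis, the same span in every panel) in the 3 arrays of each group (points, replicates 1 to 3 from left to right), with the group mean and SD beside them in black. For Nrg1 and Epgn every trypsinized and mock sorted array lies above every untrypsinized array, while Ereg is highest in the trypsinized arrays.

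Nrg1, which encodes neuregulin 1, a ligand of ErbB3 and ErbB4, had the largest difference (array row 10578045). Its intensity was 901, 910 and 962 in the untrypsinized arrays, 1315, 1286 and 1467 in the trypsinized arrays and 1392, 1401 and 1559 in the mock sorted arrays. All 6 arrays that had met trypsin lay above all 3 that had not, and the trypsinized and mock sorted groups overlapped. Mean log2 intensity of Nrg1 was 9.85 ± 0.05 without and 10.40 ± 0.10 with trypsin (SD, n = 3). This rise of 0.55 in log2 units (SE 0.07, adjusted p = 0.00131) was 1.46-fold (95% interval 1.32 to 1.63). It passed under all 20 alternative settings, at 0.42 to 0.59, and of these settings 1, leaving out trypsinized replicate 2, brought it past 1.5-fold, at 0.588. The summed intensity of 12 basal and myoepithelial markers was 65403 to 67130 in untrypsinized, 61665 to 62843 in trypsinized and 55797 to 56995 in mock sorted arrays, the opposite order, and their part in the Nrg1 result was not tested.

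Epgn encodes epigen, a ligand of the EGF receptor (row 10523168). Its intensity was 1851, 2196 and 1995 in untrypsinized, 2580, 2917 and 2691 in trypsinized and 2884, 2988 and 2823 in mock sorted arrays. Replicate 2 was the highest array of each group, and the trypsinized and untrypsinized groups did not overlap. Epgn rose by 0.44 (SE 0.07, adjusted p = 0.00425), from 10.97 ± 0.12 to 11.41 ± 0.09, or 1.36-fold (1.21 to 1.52), and passed under all 20 alternatives.

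Ereg encodes epiregulin, which binds EGFR and ErbB4 (row 10523175). The untrypsinized arrays read 903, 774 and 840, the trypsinized arrays 1048, 1013 and 1065, and the mock sorted arrays 832, 873 and 911. The trypsinized arrays lay above all others, and the untrypsinized and mock sorted groups overlapped. Ereg rose by 0.31 after trypsin (SE 0.06, adjusted p = 0.00888), from 9.71 ± 0.11 to 10.03 ± 0.04.

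Tgfa encodes transforming growth factor alpha, a ligand of the EGF receptor (row 10539692). It read 909, 844 and 931 in untrypsinized, 1076, 1045 and 1073 in trypsinized and 997, 1044 and 1095 in mock sorted arrays. Every trypsinized and mock sorted array was above every untrypsinized array. Tgfa rose by 0.25 after trypsin (SE 0.05, adjusted p = 0.00990), or 1.19-fold (1.10 to 1.29).

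Hbegf encodes heparin-binding EGF-like growth factor, which binds EGFR and ErbB4 (row 10458340). Its values were 4996, 5117 and 5384 in untrypsinized, 5929, 6377 and 5887 in trypsinized and 5794, 6050 and 6021 in mock sorted arrays. The untrypsinized arrays were again the 3 lowest. Hbegf rose by 0.23 after trypsin (SE 0.05, adjusted p = 0.0102), from 12.33 ± 0.05 to 12.57 ± 0.06.

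Btc and Egf did not pass after trypsin. Btc, the betacellulin gene, encodes a ligand of EGFR and ErbB4 (row 10531274) and read 1052, 1109 and 1048, then 1105, 1107 and 1132, then 1183, 1269 and 1244 from untrypsinized to mock sorted arrays. The first 2 of these groups overlapped, with a difference of 0.06 (95% interval -0.03 to 0.15, adjusted p = 0.304). Egf, the gene of epidermal growth factor itself (row 10502105), read 160, 181 and 188, then 203, 197 and 212, then 217, 248 and 213. The groups did not overlap, yet the difference of 0.21 missed the threshold (interval 0.03 to 0.38, adjusted p = 0.0820). Egf was dim: 85.8% of 1027 olfactory receptor genes, which these cells are not known to use, had a lower mean, against 99.8% to 100% for the other members, so Egf may not be above background.

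Erbb3, the receptor gene that binds neuregulins (row 10373467), read 4254, 4523 and 4370 in untrypsinized, 4911, 5046 and 4889 in trypsinized and 5330, 5201 and 5178 in mock sorted arrays. No 2 groups overlapped, and the order was untrypsinized, trypsinized, mock sorted. Erbb3 rose by 0.18 after trypsin (SE 0.04, adjusted p = 0.0114), from 12.10 ± 0.04 to 12.27 ± 0.02. Luminal markers moved in the same direction, with 4 of 12 higher and 0 lower by the adjusted test (4 and 1 at an unadjusted p under 0.05), and their part in this result was not tested. Without trypsinized replicate 3, 2 of the 12 were higher, and with a common median 0 were higher and 2 lower. Egfr, the EGF receptor gene (row 10374366), read 1973, 1680 and 1975, then 1940, 1768 and 1829, then 1719, 1586 and 1694. The untrypsinized and trypsinized groups overlapped, with a difference of -0.02 (interval -0.18 to 0.14, adjusted p = 0.859), whose sign turned with array weights and without untrypsinized replicate 1 or 3 or trypsinized replicate 2.

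Over the 9 genes, 7 had trypsinized arrays all above the untrypsinized ones and 0 all below, against 25.0% and 19.4% of all genes. Their median log2 difference was 0.23, beside 0.04 over all genes. These counts rest on how arrays were scaled, since the differences are small. Setting the arrays to a common median over all rows moved the median of all genes by more than 0.1, from 0.04 to -0.09, and then 2 of 9 rose, Nrg1 by 0.42 (adjusted p = 0.00263) and Epgn by 0.31 (adjusted p = 0.0125). Relative to the median of all genes, 8 of 9 members were higher with the deposited scaling and with a common median, and 9 of 9 after quantile normalization, with a median excess of 0.19, 0.19 and 0.25. The first 2 of these are equal by construction.

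**Figure D2:**
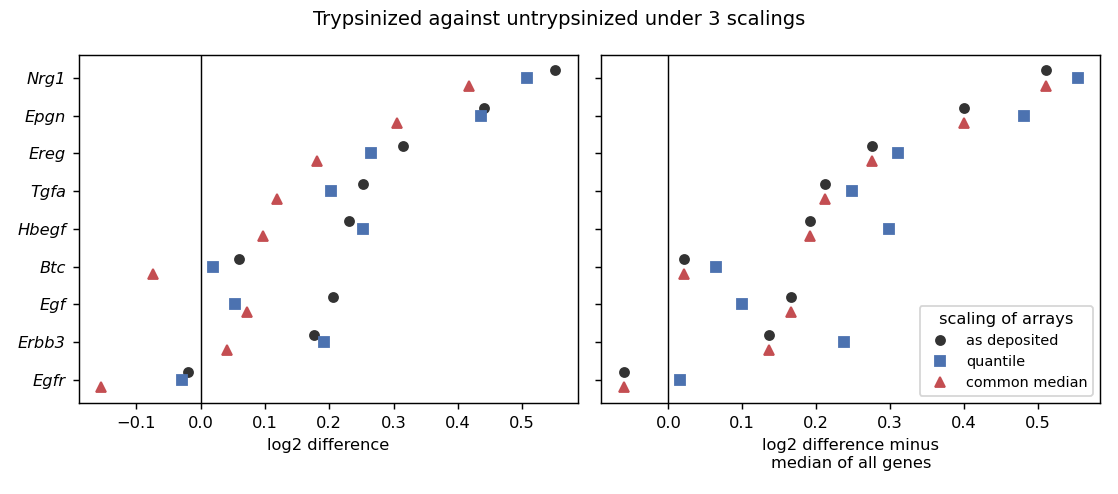
Log2 difference, trypsinized minus untrypsinized, of each EGF family gene (left) and the same minus the median of all genes (right), with arrays as deposited (circles), quantile normalized (squares) or set to a common median (triangles). A common median lowers every difference on the left, Btc to -0.07 and Nrg1 to 0.42, while on the right the deposited and common median points of a gene have the same value.

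Mock sorted against trypsinized cells shows what went with passage through the sorter. No member passed the adjusted test in limma's fit, and none was called. At that adjusted p 0.466% of all genes were higher and 4.20% lower, and with the 1.5-fold minimum 0.0251% and 1.17%, so few genes passed in either direction. At an unadjusted limma p under 0.05, 1 member, Ereg, was lower and 1, Btc, was higher. The mock sorted arrays lay wholly above the trypsinized ones for Btc, Egf and Erbb3 and wholly below for Ereg and Egfr, that is 3 and 2 of 9 genes, against 9.74% and 14.3% of all genes. The members' median difference was 0.08, beside 0.00 over all genes.

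Ereg had a log2 difference of -0.26 (SE 0.06, interval -0.40 to -0.12), with mock sorted arrays at 9.77 ± 0.07 against 10.03 ± 0.04. Its adjusted p of 0.0551 missed the threshold, and over the 20 alternatives it was 0.0144 to 0.232, passing in 6 of them, among them without untrypsinized replicate 1 (0.0334) or 2 (0.0343). With the replicate number as a block and the 6 arrays compared, it was 0.0648. The comparison shares its trypsinized arrays with the one above, so the higher trypsinized level of Ereg enters both. Btc differed by 0.14 (SE 0.04, adjusted p = 0.103), Egf by 0.15 (SE 0.08, adjusted p = 0.379) and Erbb3 by 0.08 (SE 0.04, adjusted p = 0.305). For Nrg1 the difference was 0.10 (interval -0.05 to 0.25), for Epgn 0.09 (-0.07 to 0.25), for Hbegf -0.03 (-0.13 to 0.08) and for Tgfa -0.03 (-0.14 to 0.09). Egfr stood at -0.15 (-0.31 to 0.02, adjusted p = 0.346). Endothelial markers moved far more in this comparison, with 12 of 12 lower by the adjusted test and a median of -1.05, and their part in the members' values was not tested.

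**Figure D3:**
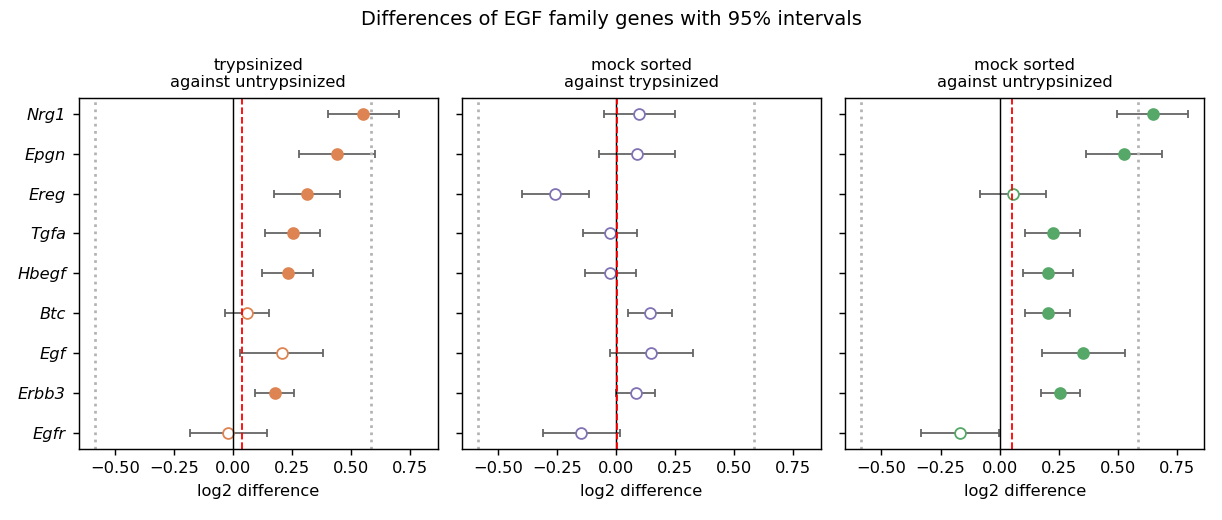
Log2 differences of the EGF family genes (points) with 95% intervals (bars) in the 3 comparisons, filled where the adjusted p was 0.05 or below. The dashed line marks the median of all genes and the dotted lines a 1.5-fold difference. Filled points number 6, 0 and 7, and only the Nrg1 point of mock sorted against untrypsinized cells lies past 1.5-fold.

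Mock sorted and untrypsinized cells differ by both steps, a comparison that the design text does not list. Of the 9 genes 7 rose (Nrg1, Epgn, Egf, Erbb3, Tgfa, Hbegf and Btc) and none fell (1, Egfr, lower at an unadjusted limma p under 0.05), against 21.0% of all genes higher and 18.0% lower at an adjusted p of 0.05 or below. Nrg1 was the 1 member called with the 1.5-fold minimum, where 1.08% of all genes were called higher and 3.40% lower. It rose by 0.65 (SE 0.07, adjusted p = 0.000174), from 9.85 ± 0.05 to 10.50 ± 0.09, or 1.57-fold (1.41 to 1.74). With a common median the rise was 0.50, under the minimum fold (adjusted p = 0.000468).

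Epgn rose by 0.53 (SE 0.07, adjusted p = 0.000736), or 1.44-fold (1.29 to 1.61), and was also called without untrypsinized replicate 2, at 0.592. Erbb3 rose by 0.26 (SE 0.04, adjusted p = 0.00105), from 12.10 ± 0.04 to 12.35 ± 0.02. The rise of Egf, subject to its dim signal, was 0.35 (SE 0.08, adjusted p = 0.00787), and did not pass after quantile normalization (adjusted p = 0.0958). Tgfa rose by 0.23 (SE 0.05, adjusted p = 0.00924), Hbegf by 0.21 (SE 0.05, adjusted p = 0.00970) and Btc by 0.20 (SE 0.04, adjusted p = 0.00568). With a common median these last 3 and Erbb3 no longer passed (adjusted p = 0.353, 0.454, 0.473 and 0.104), so that 3 of 9 rose, Nrg1, Epgn and Egf.

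Ereg, by contrast, ended near its starting level, at a difference of 0.06 (interval -0.08 to 0.20, adjusted p = 0.482), which turned to -0.09 with a common median. Egfr was at -0.17 (interval -0.33 to -0.00396, adjusted p = 0.0950) and passed as lower in 4 of the 20 alternatives, among them a common median, at -0.32 (adjusted p = 0.00913), and without untrypsinized replicate 2. Mock sorted arrays lay wholly above untrypsinized ones for 7 of 9 genes and wholly below for 0, against 28.7% and 23.4% of all genes. The median difference was 0.23 over the members and 0.05 over all genes. In this comparison 7 of 12 luminal markers were higher and 1 lower, and 12 of 12 endothelial and 11 of 12 fibroblast markers were lower at an adjusted p of 0.05 or below. Without untrypsinized replicate 2 or 3 or mock sorted replicate 2, 4 luminal markers were higher, and with a common median 0. The part of these markers in the members' differences was not tested.

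Over the 3 groups together, limma's F test passed 8 of 9 members at an adjusted p of 0.05 or below, all but Egfr (adjusted p = 0.166), against 33.2% of all genes. Nrg1 had the smallest p (adjusted p = 0.000383) and ranked 751 of 19938 genes, and Epgn followed (adjusted p = 0.00163) at rank 1430. With a common median 4 members passed.

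The genes whose profile over the 9 arrays lay closest to these 2 members were found by the root mean square difference between log2 profiles, each centred on its own mean, among 19937 other genes. Closest to Nrg1 were Rnf207 at 0.063, Per2, a circadian clock gene, at 0.063, and Casz1, a zinc finger transcription factor, at 0.066. Mean log2 intensity of Per2 was 10.79 in untrypsinized, 11.40 in trypsinized and 11.49 in mock sorted arrays. Closest to Epgn were Ano9 at 0.043, Dtx3 at 0.046 and Eml5 at 0.050, and Ano9 went from 10.21 to 10.66 and 10.76. All 6 had their lowest group mean in untrypsinized and their highest in mock sorted arrays. Nrg1 and Epgn have the same order, so it follows from how these genes were chosen.

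The other genes of the pathway were taken from lists of named genes, and in 4 of the 5 lists some passed as higher and some as lower over both steps. Of all genes, 13.9% passed as higher and 11.5% as lower after trypsin, 0.466% and 4.20% after the mock sort, and 21.0% and 18.0% over both steps. Among 6 other ErbB receptors and ligands, 0 passed in limma's fit after trypsin (at an unadjusted p under 0.05, 3 higher and 0 lower), 0 after the mock sort (1 and 0), and 2 rose over both steps. These were Erbb2, the preferred partner of ErbB3, by 0.14 (SE 0.03, adjusted p = 0.0132) and Erbb4 by 0.25 (SE 0.08, adjusted p = 0.0446). Erbb2 did not pass in 3 of 20 alternatives, among them a common median, at -0.01, and without both replicate 1 arrays of trypsinized and mock sorted cells, and Erbb4 in 11 of 20 alternatives, among them without untrypsinized replicate 1 or 2, any 1 trypsinized replicate, or mock sorted replicate 2 or 3.

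Of 15 genes that process the ligands, 3 rose and 3 fell after trypsin, 0 and 3 passed in those directions after the mock sort (1 and 3 at an unadjusted limma p under 0.05), and 5 and 4 over both steps. Rhbdf1, which encodes an inactive rhomboid protein that helps the sheddase ADAM17 mature, rose by 0.35 after trypsin (SE 0.04, adjusted p = 0.00107), and its relative Rhbdf2 by 0.28 (SE 0.05, adjusted p = 0.00464). Adam17 itself was lower, at -0.18 after trypsin (adjusted p = 0.0257) and -0.205 over both steps (adjusted p = 0.00979). Pcsk6 was lower after trypsin at -0.21 (adjusted p = 0.0107), after the mock sort at -0.24 (adjusted p = 0.0193) and over both steps at -0.45 (adjusted p = 0.000142). Timp3, an inhibitor of ADAM17 and of matrix metalloproteinases, fell by 0.46 after the mock sort (SE 0.05, adjusted p = 0.000737) and by 0.64 over both steps (SE 0.05, adjusted p = 2.86e-05), the latter past 1.5-fold. After the mock sort 12 of 12 endothelial and 6 of 8 pericyte markers were also lower, and 0 higher, by the adjusted test. Their part in the fall of Timp3 was not tested. Rhbdf1 after trypsin and Timp3 in both comparisons passed under all 20 alternatives, while Rhbdf2 passed under 19. With a common median 7 fell after trypsin. The 3 genes lower after trypsin were 1 without untrypsinized replicate 3, trypsinized replicate 2 or trypsinized replicate 3. The 3 lower after the mock sort were 1 without trypsinized replicate 2 or 3 or mock sorted replicate 1 or 2. The 5 higher over both steps were 3 without untrypsinized replicate 1 or 2 or mock sorted replicate 2 or 3.

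Among 19 receptor adaptors and kinases of the ERK cascade, 3 rose and 3 fell over both steps, with a median of -0.01, and 0 passed after the mock sort (at an unadjusted limma p under 0.05, 2 higher and 4 lower). Over both steps 21.0% of all genes passed as higher and 18.0% as lower, so passing was common. Braf, a kinase that carries the signal from Ras towards ERK, rose by 0.34 over both steps (SE 0.05, adjusted p = 0.00207). Plcg1, a phospholipase that binds activated receptors, fell by 0.37 (SE 0.07, adjusted p = 0.00320), and Pik3ca, a catalytic subunit of phosphoinositide 3-kinase, by 0.20 (SE 0.04, adjusted p = 0.00418). Of 18 genes that restrain the receptors or turn them over, 5 rose and 2 fell over both steps. Lrig3, of a family of transmembrane proteins that includes the EGF receptor inhibitor Lrig1, fell by 0.53 (SE 0.05, adjusted p = 0.000169). Lrig1 itself rose by 0.14 over both steps (SE 0.04, adjusted p = 0.02). Cbl rose by 0.26 (SE 0.05, adjusted p = 0.00357) and Hgs by 0.14 (SE 0.03, adjusted p = 0.00719). Without mock sorted replicate 2 or 3, 3 of the 18 rose, and without any 1 of the 9 arrays 1 fell. With a common median, 1 adaptor rose and 11 fell over both steps, and 0 of the restraining genes rose and 8 fell.

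The list of 19 ERK-induced targets and feedback genes had 7 higher and 2 lower after trypsin at a median of 0.10, 1 higher and 2 lower after the mock sort, and 7 higher and 5 lower over both steps. With a common median these were 5 higher and 4 lower after trypsin, 0 and 1 after the mock sort, and 3 and 7 over both steps. With the deposited scaling, 13.9% of all genes were higher and 11.5% lower after trypsin, and 21.0% and 18.0% over both steps. Plaur, the urokinase receptor gene, rose by 0.44 after trypsin (SE 0.04, adjusted p = 0.000651), Fosl1, an AP-1 transcription factor gene, by 0.33 (SE 0.03, adjusted p = 0.000604), and Dusp4, a phosphatase of ERK, by 0.31 (SE 0.03, adjusted p = 0.000556). Each of these 3 passed under all 20 alternatives. The 2 lower after trypsin were Spry1, at -0.196 (SE 0.05, adjusted p = 0.0225), and Etv5, at -0.157 (SE 0.04, adjusted p = 0.0302). Without any 1 of the 6 arrays compared, 0 or 1 gene of the list was lower. After the mock sort the 1 higher gene, Dusp4, did not pass without any 1 of the 6 arrays compared or untrypsinized replicate 2, and the 2 lower, Spry4 and Spry2, were 1 or 0 without any 1 array of the series.

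**Figure D4:**
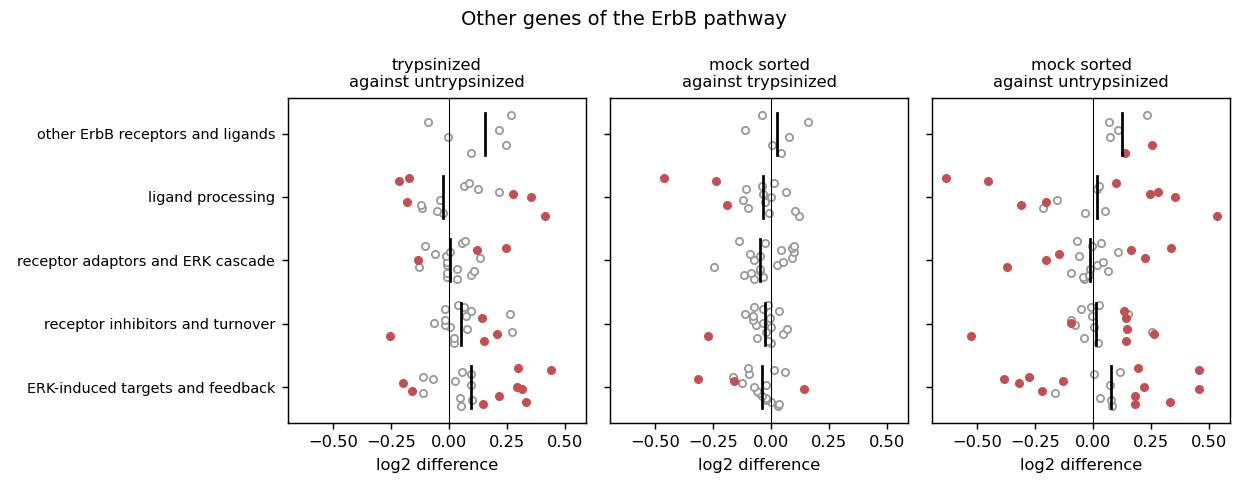
Log2 differences (horizontal axis) of the genes on 5 lists of the ErbB pathway (rows) in the 3 comparisons, filled red where the adjusted p was 0.05 or below, with each list's median as a black bar. Filled points lie on both sides of 0 in the list of ERK-induced targets, with 7 to the right and 2 to the left after trypsin.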

How the data were processed

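RNA of 9 samples was measured on Affymetrix whole-transcript arrays. What was deposited is a linear intensity for each of 35512 rows on each array. How the authors corrected background, combined probes and scaled arrays is not given in the sources used here, and limma is named in the submitters' processing notes. Array medians were 345 to 408, and the number of arrays limits precision.

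Rows were named from the platform annotation, with symbols updated by gene number (RefSeq, GRCm38.p6). The row with the highest mean stood for a gene. Log2(intensity + 1), a pseudocount of 1, was fitted with limma 3.58.1 (R 4.3.3), with a mean per group over all 9 arrays, and the 3 contrasts and F test were adjusted by Benjamini-Hochberg over 19938 genes. Log2 differences understate the fold of dim genes. The fit was tested on simulated data, with 50 genes changed at each fold. Of those changed 1.25-fold, 60% passed for trypsinized against untrypsinized, 48% for mock sorted against trypsinized and 38% for mock sorted against untrypsinized. At 1.5-fold these were 74%, 70% and 84%. Fewer genes were changed in the simulation than passed in any comparison of these data, and the adjustment is stricter when few genes change. These rates therefore do not give the share of differences missed here, though some small ones may have been.

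Trypsinized and mock sorted arrays sharing a replicate number deviated together from their group means (r over genes of 0.53, 0.29 and 0.29) and were taken as paired on these values, not on the labels. With untrypsinized arrays such correlations for replicates 1 to 3 were 0.11, 0.04 and -0.04 for trypsinized arrays. For mock sorted arrays they were 0.32, 0.18 and 0.06. Not every one of these exceeded 0.1. The main fit had no replicate term, so its p-values and intervals did not use the pairing, which entered only through the replicate block.

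The members and lists were chosen with earlier results of these data known. Genes named are all members, up to 3 genes per pathway list and comparison with the smallest p, and the 3 profiles closest to each of the 2 members with the smallest F test p. Adam17, Lrig1, Spry1 and Etv5 were named in addition, outside this rule. Alternatives covered threshold, scaling, pseudocount, dim genes, row choice, variance model, array weights, arrays fitted, the replicate block and each array left out. Leaving out both replicate 1 arrays of trypsinized and mock sorted cells, and following the counts with no minimum fold, were chosen after seeing the data.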

Additional observations from a re-analysis of the deposited data

How the results depend on the processing

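Of 540 values for the 9 members under alternative settings, 527 kept their direction and their side of the call, 10 changed sign, 2 came to be called and 1 ceased to be. With no minimum fold, 6 members passed after trypsin and 7 over both steps, where 0 and 1 were called. Leaving out single arrays gave 0 to 1 called after trypsin (1 without trypsinized replicate 2) and 1 to 2 over both steps (2 without untrypsinized replicate 2). A common median gave 0 called over both steps, 2 rather than 6 risen after trypsin, 3 risen and 1 fallen (Egfr) over both steps, and 4 passing the F test. After the mock sort 1 member, Btc, rose with array weights. Ereg was the 1 member that fell there without dim genes, with a robust variance trend, with array weights and with only the 2 groups fitted, and single arrays left out gave 0 to 1. Over both steps Egfr was the 1 that fell with a robust variance trend, and single arrays left out gave 0 to 1.

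With the replicate block, 2 members rose after trypsin when only those 2 groups were fitted, and 1 (Egfr) fell over both steps in the fit of 9 arrays. Trypsinized and mock sorted arrays were taken as paired. Between them no member passed in the main fit of 9 arrays, with or without the replicate block. With only these 2 groups fitted in limma, Ereg passed as lower without the block (adjusted p = 0.0398) but not with it (adjusted p = 0.0648).

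The values that changed sign were small and none of them passed. A common median turned Btc to -0.074 after trypsin and Ereg to -0.093 over both steps. Egfr after trypsin was 0.016 with array weights and -0.098 to 0.019 with single arrays left out. After the mock sort Hbegf was -0.047 to 0.011 and Tgfa -0.061 to 0.007 with single arrays left out, and Tgfa was 0.008 after quantile normalization and 0.014 without both replicate 1 arrays. The cause was not tested. Signal over background limits Egf.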
